A study of Mus musculus with 3 samples.

Results

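The mutant embryos of this series lacked Wls in the Mesp1 lineage, and the cells described here are the mutant cells labelled E8.0 and E9.5. They were taken by their stage and genotype in the authors' table of cells, and no measured value was used to choose them. They numbered 4438 of 14777 cells, 1653 at E8.0 and 2785 at E9.5. Their unique molecular identifier (UMI) counts were summed over each MULTI-seq barcode, a tag bound to the cells of one source before sources are mixed. Of 22 barcodes in the series 9 were used, 3 at E8.0 and 6 at E9.5, each with 20 or more cells.

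Mutants were Mesp1-Cre; Ai9; Wls fl/fl and controls Mesp1-Cre; Ai9; Wls fl/+ on a C57BL/6 background, so both genotypes carried the Cre, the reporter and at least 1 floxed allele. Mesp1-Cre is expressed in nascent mesoderm of the gastrulating embryo, and the Ai9 red fluorescent reporter, by which the cells were sorted, stays on in all descendants of a recombined cell. The sort therefore takes in heart, blood, vessel, head and trunk mesoderm together, and it says nothing of cells that Cre did not reach. Wls encodes the transmembrane protein that carries lipid-modified Wnt ligands to the cell surface. Cells without it can still receive Wnt signals but secrete few of their own. Between E8.0 and E9.5 the mouse heart tube forms and loops, primitive red cells enter the circulation and the somites and limb fields are laid down. The number of embryos per barcode is not given in the sources used here (1 control barcode at E8.0, Bar29, held both male and female cells), so p-values below measure the spread between barcodes, which may in part be technical.

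All 3 E8.0 mutant barcodes and 3 of the 6 E9.5 mutant barcodes (Bar19, Bar20 and Bar21) came from 1 NovaSeq run. The other 3 E9.5 barcodes came from 2 NextSeq runs, Bar5 from the first and Bar8 and Bar10 from the second. A barcode held from 57 (Bar5) to 864 cells (Bar19) and from 927842 to 18034568 UMIs. Median depth per cell was 25075 to 27469 UMIs at E8.0 and 9760 to 21309 UMIs at E9.5. By Xist and Y-linked UMIs the E8.0 barcodes were all male, while at E9.5 3 were male and 3 female, so sex and stage were not balanced. Of the 14777 cell names, 23 cell barcodes occurred in more than 1 run. Bar5 stood apart from the other E9.5 mutants in its globin content, 23.7% of its UMIs against 4.95% to 9.45%, and where it was apart for a gene that rose, the change is also given without it. Genes of other cell types were detected. The summed level of 14 neural genes was 55.1 to 79.4 CPM (a gene's UMIs scaled to an equal total in every barcode) at E8.0 and 60.3 to 132.6 CPM at E9.5. That of 13 endoderm and epithelial genes was 45.9 to 193.7 CPM at E8.0 and 7.54 to 560.0 CPM (median 43.6) at E9.5, where that of 14 endothelial genes was 148.7 to 337 CPM, and 359.7 to 641 CPM at E8.0. None of these genes was at 0 in all mutant barcodes of either stage.

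Wls itself (chromosome 3, 159839672 to 159938664, GRCm38) was measured first. The E8.0 mutants had 14.2, 13.9 and 7.25 CPM, and the 6 E9.5 mutants lay between 8.54 and 12.1 CPM with a median of 10.5. Controls had 58.2 ± 6.25 CPM at E8.0 (SD, n = 3) and 41.4 ± 4.54 CPM at E9.5 (n = 5), and all 9 mutant barcodes lay below all 8 of these. The mutant stages overlapped, and the log2 change was −0.07 (SE 0.22, edgeR adjusted p = 0.869). The reads come from the 3′ end of transcripts, and which exons the floxed allele removes is not given in the sources used here, so remaining Wls UMIs need not come from an intact transcript.

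From E8.0 to E9.5, 2713 of 17082 genes passed an adjusted p of 0.05 in edgeR's quasi-likelihood test (15.9% of those tested), 1522 higher and 1191 lower at E9.5. Log2 changes beyond 1 were seen for 735 of the higher and 278 of the lower genes. Within the NovaSeq run alone, with 3 barcodes per stage, 4260 of the 16599 genes tested in both fits passed (25.7%). Of the 2713 genes 2673 were tested there, each in the same direction, and 2529 passed. These 6 barcodes are part of the 9, so this is no independent repeat. Of the 2529 genes 1886 also had no overlap in CPM between the stages, where 24.7% of all 17082 genes had none. As the 2529 had passed stage tests on the same barcodes, a high share without overlap follows in part from their choice. Separation was more common downward, with E9.5 all below E8.0 in 18.7% of all genes and all above in 6.04%. The number of genes fell to 807 without Bar25, 908 without Bar28, 1285 without Bar27, 1632 without Bar19 and 1655 without Bar21.

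Genes of the low-oxygen response rose together. When oxygen is scarce, the prolyl hydroxylases no longer mark the HIF alpha subunits for destruction, and HIF then binds a short core sequence near genes for glucose uptake, glycolysis, vessel growth and restraint of mitochondria. All 20 genes of a list of such targets passed the filter on low counts, and all 20 rose, where 8.91% of all genes tested were called higher. Their median log2 change was 1.54 (range 0.61 to 3.75) against 0.0035 over all genes tested. In all 20 the lowest E9.5 barcode lay above the highest E8.0 barcode, a separation without overlap that 6.04% of all genes showed in this direction. The list was written with earlier results of these data known, so its count is a description.

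Ddit4, an inhibitor of the growth kinase mTORC1 (chromosome 10, 59949669 to 59951834), had 19.3, 24.6 and 38.4 CPM in the E8.0 barcodes and from 122 to 209 CPM (median 183) at E9.5. Every E9.5 barcode, on both sequencers, was more than 3 times as high as the highest E8.0 barcode. The log2 change was 2.79 (SE 0.27, edgeR adjusted p = 0.000311). Bhlhe40, a circadian and stress-responsive repressor (chromosome 6, 108660629 to 108666925), had the largest change of the list, from 1.29, 0.998 and 2.09 CPM to between 12.3 and 23.8 CPM (median 16.7, log2 3.75, SE 0.29, adjusted p = 7.28e-05). Ndrg1, a differentiation and stress gene, went from 6.18, 7.54 and 9.13 CPM to between 26.7 and 71.3 CPM (median 42.1, log2 2.79). Ier3, an early-response survival gene, went from 8.48, 11.1 and 17.4 CPM to between 38.1 and 70.1 CPM (median 54.4, log2 2.21). Neither gene's stages overlapped.

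Regulators of the response and its effectors were both among them. Egln1 and Egln3 encode 2 of the prolyl hydroxylases, and Egln1 had 83.5, 103 and 113 CPM at E8.0 against 199 to 301 CPM at E9.5 (log2 1.54). Bnip3, which marks mitochondria for removal, had 27.4, 37.0 and 38.6 CPM against 72.3 to 125 CPM (log2 1.75), and Ankrd37 had 17.7, 20.8 and 25.3 CPM against 49.4 to 112 CPM (log2 2.11). Pdk1, a kinase that inhibits pyruvate dehydrogenase, rose by 1.36, and Vegfa, the main vessel growth factor, by 1.41. The smallest change was in Higd1a, a mitochondrial respiratory factor, at 0.61 (218 ± 10.4 CPM, SD, n = 3, against 298 ± 24.4 CPM, n = 6).

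**Figure D1:**
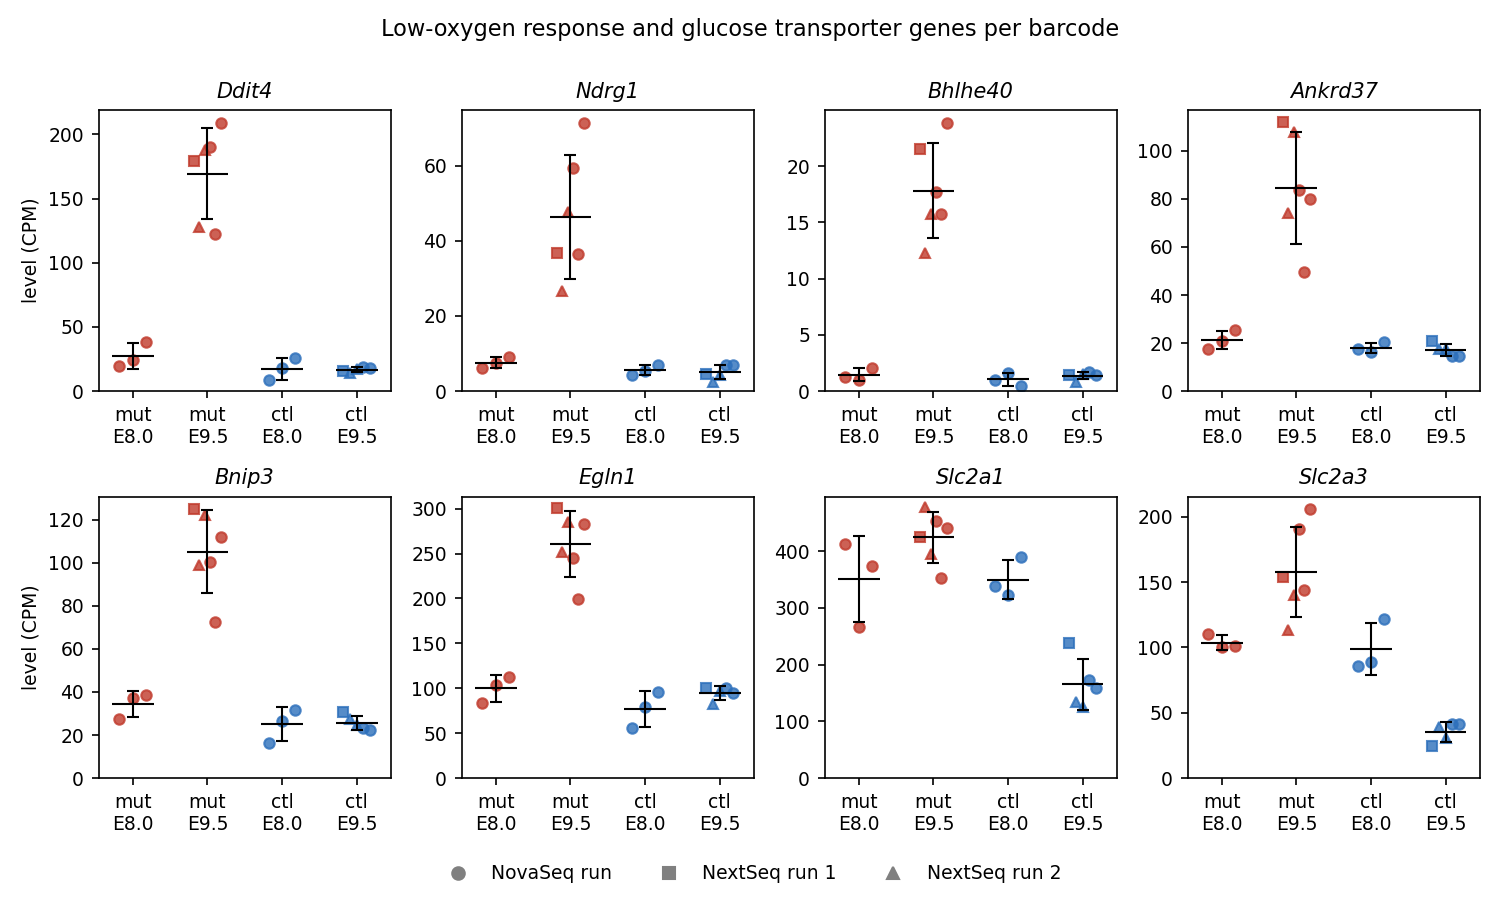
Level in CPM (linear axis from 0) of 6 low-oxygen response genes and 2 glucose transporter genes in each barcode, with the mean (bar) and SD; red points are mutants, blue points controls and the symbol gives the sequencing run. For the first 6 genes the 6 mutant barcodes at E9.5 lie above all other groups, while Slc2a1 and Slc2a3 are lowest in the E9.5 controls.

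The sequence just before the start of several of these genes holds the core of the HIF binding motif. The letters ACGTG, or CACGT on the other strand, were searched in the 250 bases before the RefSeq start (GRCm38.p6) and are called the core here. Another form of the motif, GCGTG, was neither searched nor marked. A promoter entry was found for 16 of the 20 genes, and 9 of the 16 (56.2%) held the core in the first entry, against 16.6% of 27025 genes with an entry. The 16 were drawn from a list of such targets and passed the low-count filter. The 27025 were not filtered by level, so the shares are not like for like and were not tested. The 120 bases before the start of 6 of them are printed 5′ to 3′ on the strand of the gene, with the core or its reverse complement in capitals, because the core lies within this window in each of the 6.
Bnip3: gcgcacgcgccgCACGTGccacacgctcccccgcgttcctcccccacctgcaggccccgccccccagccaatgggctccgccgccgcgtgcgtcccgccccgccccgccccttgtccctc
Ankrd37: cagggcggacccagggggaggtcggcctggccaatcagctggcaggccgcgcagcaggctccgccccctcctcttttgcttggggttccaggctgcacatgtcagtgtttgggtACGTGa
Egln1: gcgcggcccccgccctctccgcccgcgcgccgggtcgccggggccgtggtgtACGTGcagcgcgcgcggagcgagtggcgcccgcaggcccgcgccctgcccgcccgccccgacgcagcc
P4ha1: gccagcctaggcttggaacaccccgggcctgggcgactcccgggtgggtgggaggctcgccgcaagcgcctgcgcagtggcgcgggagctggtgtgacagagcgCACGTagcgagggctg
P4ha2: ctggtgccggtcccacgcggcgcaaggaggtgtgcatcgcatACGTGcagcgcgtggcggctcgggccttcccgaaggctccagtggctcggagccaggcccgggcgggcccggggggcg
Car9: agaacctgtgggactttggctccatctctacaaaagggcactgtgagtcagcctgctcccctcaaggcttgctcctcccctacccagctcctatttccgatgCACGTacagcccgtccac
They lie at chr7:138909507-138909626 (minus strand), chr8:45999851-45999970 (minus), chr8:124949255-124949374 (minus), chr10:59323176-59323295 (plus), chr11:54100804-54100923 (plus) and chr4:43506906-43507025 (plus). The core starts 6 bases before the start of Ankrd37, 16 before P4ha1, 18 before Car9, 68 before Egln1 and 78 before P4ha2. In Bnip3 the core and its reverse complement overlap in CACGTG, with the core 107 bases before the start. P4ha1 and P4ha2, subunits of the collagen prolyl hydroxylase, rose by 1.35 and 1.54, and Car9, a carbonic anhydrase, by 1.37. A match of these letters is a description and was not linked to binding by any measurement here. Genes without the letters ACGTG or CACGT in the 250 bases, such as Pdk1 and Higd1a, rose as well. P4ha2 did not pass in its change in mutants without Bar25 (adjusted p = 0.0516), nor Car9 without Bar25 or Bar28 (up to 0.0717).

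Whether the change in these genes differed from that in controls was tested as an interaction of stage and genotype with run as a term. The controls at E8.0 and E9.5 (3 and 5 barcodes) share no barcode with the mutants. At E8.0 the share of male cells was 98.3% to 99.1% in the mutant barcodes and 2.34%, 2.16% and 53.1% in the controls. Sex and genotype were thus not balanced in this test. Over all genes 103 of 17891 passed (0.576%), with the mutant change above that of controls for 89 and below it for 14 (0.0783% of all genes). Of the 20 low-oxygen genes 18 were among the 89, while 0.497% of all genes were. As the list was written with earlier results of these data known, this count too is a description. In controls edgeR called 586 of 17039 genes (3.44%, and 1.98% higher) and none of the 20, with 2 higher and 4 lower at an unadjusted p under 0.05, and their median change there was 0.06. For Ddit4 controls had 17.6 ± 8.54 CPM (n = 3) and 16.7 ± 2.04 CPM (n = 5), and the difference of the log2 changes was 2.75 (SE 0.39, edgeR adjusted p = 0.00387). The differences were 3.23 for Bhlhe40, 2.80 for Ier3, 2.73 for Ndrg1, 2.67 for Ndufa4l2, 2.38 for Egln3, 2.16 for Ankrd37, 1.68 for Bnip3 and 1.13 for Egln1 (adjusted p of 0.0184 or below). Vegfa (1.44), Pdk1 (1.07) and Higd1a (0.74) passed too, whereas Plod2 and Mxi1 did not (adjusted p = 0.0736 and 0.0558). Within the NovaSeq run alone 5 of the 20 differences passed, without a run term 8 and without Bar25 9. All 20 were positive in each of these fits. Egln1 did not pass in its difference from controls without Bar26, Bar25 or Bar27 (adjusted p up to 0.0672), nor Vegfa without Bar29, Bar25 or Bar27 (up to 0.0682), nor Pdk1 without Bar26, Bar9, Bar22, Bar23, Bar25 or Bar28 (up to 0.0909).

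Stc2, a secreted glycoprotein of the same list, had one of the largest differences (2.83, adjusted p = 0.0159), from 6.45, 10.3 and 9.90 CPM at E8.0 to between 14.9 and 67.9 CPM at E9.5 in mutants. Its highest value was in Bar5. Without Bar5 its change in mutants was 1.61 (adjusted p = 0.00458) against 1.86 with it. Stc2 did not pass in its change in mutants without Bar25 or Bar28 (adjusted p up to 0.0778). Stc2 did not pass in its difference from controls without Bar25 (adjusted p = 0.0632).

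The mutant barcode labelled E8.5 (Bar1, 487 cells, NextSeq) has no replicate and was not part of the comparison. Its levels were 71.2 CPM for Ddit4, 88.5 for Bnip3, 233 for Egln1, 60.4 for Ankrd37 and 4.77 for Bhlhe40. Each was above the highest E8.0 mutant, while those of Ddit4 and Bhlhe40 were below the lowest E9.5 mutant. For Vegfa it was 30.4 CPM, within the E8.0 mutants.

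Low-oxygen genes rose in each of 3 subsets of the mutant cells, though not every gene in each. Cells were divided by simple cuts on the UMIs of each cell into a globin range (2% or more of UMIs from 7 globin genes), a sarcomere range (0.5% or more from 6 heart muscle genes), an endothelial range (5 or more of 10 vessel genes detected) and the remaining cells. A cell that met several cuts was placed in the first of these ranges. These are ranges and not cell types, and 60, 125 and 259 of the 4438 cells lay near the globin, sarcomere and endothelial cuts. In the remaining cells all 20 genes rose with a median of 1.64, where 9.6% of 15954 genes rose and 7.33% fell. In sarcomere-range cells, with 3 E8.0 and 5 E9.5 barcodes of 20 or more such cells, 17 of 19 tested rose, against 8.67% of 8938 genes, with a median of 1.90. Bnip3, for example, had 58.9, 63.5 and 68.2 CPM in sarcomere-range cells at E8.0 and 181, 182, 238, 240.2 and 286 CPM at E9.5, without overlap. In globin-range cells, with 2 and 4 such barcodes, 8 of 15 rose, against 4.98% of 9140 genes (7.84% passed in either direction).

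Genes of glucose uptake and glycolysis rose in part. Of 18 genes 17 were tested, 10 rose and none fell, with a median of 0.65, where 8.91% of all genes rose. Without Bar25 5 passed and without Bar27 7. Aldoa was left out by the filter, at 0.277 CPM or less in the E8.0 mutants. Pfkp, the platelet-type phosphofructokinase, had 23.5, 24.1 and 24.7 CPM at E8.0 and 40.4 to 75.4 CPM (median 67.3) at E9.5, without overlap (log2 1.54, SE 0.20, edgeR adjusted p = 0.00116). Pfkfb3, which makes the activator of phosphofructokinase, rose by 1.61, Gpi1 by 0.92, Tpi1 by 0.73, Hk2 by 0.66 and Ldha, lactate dehydrogenase, by 0.50. The difference from controls passed for 11 of the 17 genes, on a list also written with earlier results of these data known. It did so for Slc2a3, the neuronal-type glucose transporter, with 110.1, 100.2 and 101 CPM at E8.0 and 113 to 206 CPM at E9.5 in mutants. Controls went from 98.8 ± 19.7 to 35.5 ± 7.54 CPM. Slc2a3 thus rose in mutants (log2 0.77, adjusted p = 0.0153) and fell in controls (−1.34, adjusted p = 0.00379), with a difference of 2.12 (adjusted p = 0.00196). Slc2a1, the widespread glucose transporter, did not pass in mutants (0.43, adjusted p = 0.0901) and fell in controls (−0.91), and its difference was 1.43 (adjusted p = 0.00387). The differences for Pfkp (1.84), Pfkfb3 (1.55), Hk2 (1.25), Gpi1 (0.82), Tpi1 (0.71) and Ldha (0.59) passed as well. Without Bar25, without Bar28 and without a run term, 3 of the 17 differences passed each time, within the NovaSeq run 4, without Bar27 6 and without the control barcode Bar29 7. All 17 were positive in these fits. Across all genes only 4 were called in opposite directions in the genotypes, and 3 of them serve glucose use, namely Slc2a3, Hk2 and the aldolase gene Aldoc (1.06 in mutants and −1.34 in controls). The fourth was the lipoprotein receptor gene Vldlr (0.93 and −0.91). These 4 were named after their values were seen. Gpi1 did not pass in its change in mutants without Bar25 (adjusted p = 0.0519), nor Hk2 without Bar25 or Bar27 (up to 0.053), nor Ldha without Bar25, Bar27 or Bar28 (up to 0.116). Slc2a3 did not pass in its change in mutants without Bar25, Bar27 or Bar28 (adjusted p up to 0.0701), nor Aldoc without Bar25, Bar27, Bar28, Bar19 or Bar21 (up to 0.0977), nor Vldlr without Bar25, Bar27, Bar28, Bar19 or Bar21 (up to 0.126). Pfkp did not pass in its difference from controls without Bar25, Bar27 or Bar28 (adjusted p up to 0.0621), nor Pfkfb3 without Bar26, Bar29, Bar25, Bar27 or Bar28 (up to 0.0672), nor Gpi1 without Bar26, Bar25 or Bar28 (up to 0.0682). Tpi1 did not pass in its difference from controls without Bar25 or Bar28 (adjusted p up to 0.0661), nor Ldha without Bar24, Bar29, Bar7, Bar9, Bar22, Bar25, Bar27, Bar28, Bar8, Bar10, Bar19 or Bar21 (up to 0.128).

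In sarcomere-range cells 15 of the 17 glycolysis genes rose (median 0.85), where 8.67% of 8938 genes rose. Slc2a1 was among them there, with 306, 355 and 399 CPM at E8.0 and 723, 730.4, 894, 1151 and 1242 CPM at E9.5 (1.51, adjusted p = 0.000119). Globin-range cells differed in the counts, with 1 of 16 genes higher and 5 lower, where 4.98% of all genes were higher and 2.87% lower. Ldha at −0.61 (adjusted p = 0.0373) and Hk2 at −0.97 (adjusted p = 0.013) were among the lower ones. The difference between these ranges was not tested.

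Of 13 mitochondrially encoded respiratory genes 5 fell and none rose, with a median of −0.48, where 6.97% of all genes fell. Without Bar25 or Bar28 0 of the 13 were called and without Bar27 1, where calls over all genes fell from 2713 to 807, 908 and 1285. The median stayed negative, at −0.43 without Bar25, −0.50 without Bar28 and −0.52 without Bar27. mt-Nd1, a subunit of complex I, had 3898, 3619 and 3690.0 CPM at E8.0 and 913 to 2826 CPM at E9.5 (log2 −0.87, adjusted p = 0.0142), and differed from the change in controls by −0.69 (adjusted p = 0.0368). The cytochrome b gene mt-Cytb (−0.78) and the complex I gene mt-Nd2 (−0.65) fell as well. The share of UMIs from the mitochondrial genome differed between sequencers. In mutants it was 2.36% to 2.54% at E8.0, 1.84% to 2.16% in the 3 NovaSeq barcodes at E9.5 and 0.862% to 1.44% in the 3 NextSeq barcodes, and in E9.5 controls 2.53% to 2.61% on the NovaSeq and 1.40% to 1.65% on the NextSeq. Within the NovaSeq run mt-Nd1 was at −0.57 (adjusted p = 0.00691), mt-Cytb at −0.45 and mt-Nd2 at −0.40, each still called. Of 24 nuclear respiratory genes tested 1 rose, the heart and muscle subunit Cox6a2 (2.57), and 1 fell, cytochrome c (Cycs, −0.76), shares below those of all genes. mt-Nd1 did not pass in its change in mutants without Bar25 or Bar28 (adjusted p up to 0.0694), nor mt-Cytb without Bar25, Bar27 or Bar28 (up to 0.114), nor mt-Nd2 without Bar25, Bar27 or Bar28 (up to 0.0989). Cycs did not pass in its change in mutants without Bar25 (adjusted p = 0.0587). mt-Nd1 did not pass in its difference from controls without Bar26, Bar29, Bar9, Bar22, Bar23, Bar25, Bar27, Bar28, Bar10, Bar19 or Bar21 (adjusted p up to 0.109).

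Many genes of the primitive streak and early mesoderm fell between the stages. Of 16 such genes 14 passed the low-count filter, 9 fell and none rose, where 6.97% of all genes fell. Cdx2, a caudal regulator of axis extension (chromosome 5, 147300805 to 147307270), had 34.9, 24.6 and 36.4 CPM at E8.0 and 0.534 to 4.32 CPM (median 2.96) at E9.5 (log2 −3.28, SE 0.24, edgeR adjusted p = 4.9e-05). Evx1, a posterior streak gene, went from 6.73, 5.32 and 8.09 CPM to 0.996 CPM or less. T (Brachyury), the classical streak and notochord factor, had 8.85, 2.88 and 4.60 CPM at E8.0. At E9.5 it was 3.74 CPM in Bar8 and at most 1.21 CPM in the other 5, so the stages overlapped (log2 −2.83, adjusted p = 0.0155). Mixl1 (−2.16), Lhx1 (−1.39) and Cer1 (−3.96), the last a secreted Nodal and BMP antagonist, fell too. In controls the list's median was −1.66 with 3 of 13 genes called lower and 10 lower at an unadjusted p under 0.05. In the test of the difference edgeR called none of 15, with 2 at an unadjusted p under 0.05. T did not pass in its change in mutants without Bar25 (adjusted p = 0.0897), nor Lhx1 without Bar25 or Bar28 (up to 0.0855).

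Some Nodal pathway genes of the left-right axis fell. Lefty2, the feedback inhibitor of Nodal in left lateral plate mesoderm, had the largest fall of the named genes (−5.69, SE 0.80, adjusted p = 0.00158). Its E8.0 barcodes were uneven, with 79.7, 3.55 and 64.5 CPM for Bar25, Bar27 and Bar28, and the E9.5 barcodes had 1.18 CPM or less. The Nodal co-receptor Cfc1 (−4.01) and its relative Tdgf1 (−1.52) fell too. In the whole list 4 of 7 genes tested fell and none rose, where 6.97% of all genes fell.

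The list of the largest falls also held Tbx4 (−3.70), a T-box factor of the allantois and hindlimb field, with 12.5, 28.9 and 25.6 CPM at E8.0 and 3.48 CPM or less at E9.5. Etv2, the factor that starts the blood and vessel lineages, had 58.4, 100.4 and 122 CPM and then 3.20 to 20.3 CPM (log2 −2.79, adjusted p = 0.00111). Phlda2, an imprinted gene that restrains placental growth, had 528, 699 and 674 CPM and then 4.31 to 104 CPM (−3.36). The others were the interferon-inducible membrane gene Ifitm1 (−2.46), Igfbpl1 (−2.41), the kinesin Kifc2 (−1.77), the Apelin receptor ligand Apela (−1.72) and Hoxaas3 (−1.65). Hoxaas3 lies antisense to Hoxa genes, and whether strand was used in counting is not given in the sources used here. 

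**Figure D2:**
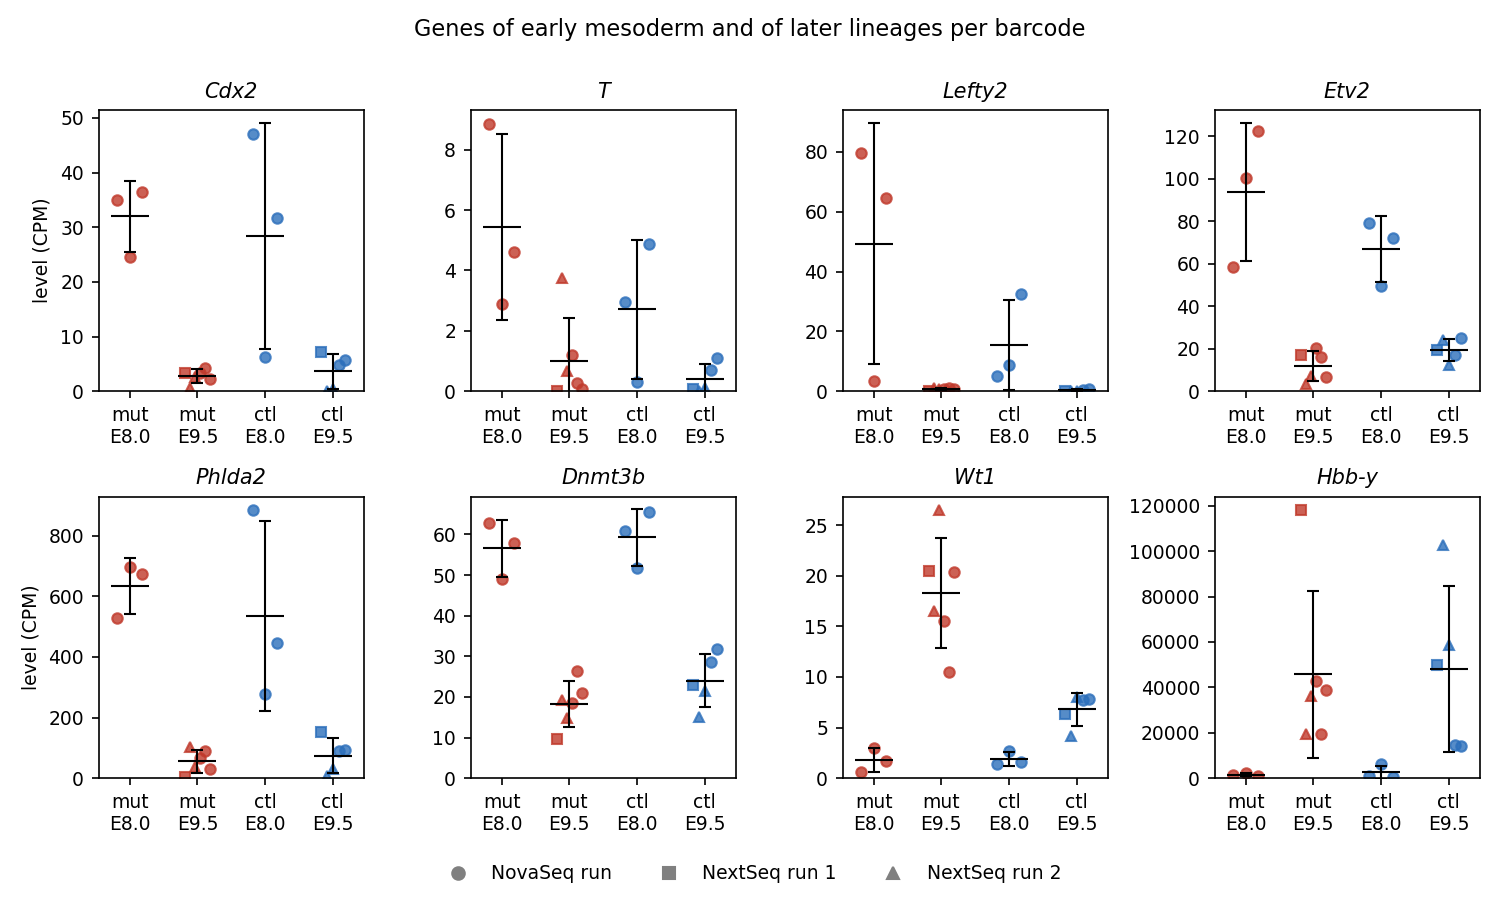
Level in CPM (linear axes from 0) of 6 genes that fell and 2 that rose in mutants, in each barcode of both genotypes, with mean (bar) and SD; symbols give the sequencing run. Cdx2, Etv2, Phlda2 and Dnmt3b are separated between the mutant stages, T overlaps through the NextSeq barcode Bar8, Lefty2 at E8.0 is low in Bar27, and Hbb-y at E9.5 is highest in Bar5.

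Several genes of early developmental timing fell. Lin28a, the RNA-binding inhibitor of let-7 maturation, had 301, 249 and 262 CPM at E8.0 and 30.2 to 159.6 CPM (median 119) at E9.5 (−1.12, adjusted p = 0.0119). The de novo DNA methyltransferase Dnmt3b had 62.9, 49.0 and 57.8 CPM and then 9.70 to 26.4 CPM (−1.41, adjusted p = 0.000502). Sall4 (−1.13) and Trim71 (−0.72), a pluripotency factor and a let-7 target, also fell, and Tet2, an enzyme that oxidises methylcytosine, rose (1.34). In all, 5 of 16 genes tested fell and 1 rose, against 6.97% and 8.91% of all genes, with 2 falls without Bar25 and 3 without Bar27, Bar28, Bar19 or Bar21. Among 16 imprinted genes 2 fell, Phlda2 among them, and 5 rose, such as Dlk1 (1.20) and Plagl1 (1.20), with 3 rises without Bar25 or Bar28 and 1 fall without Bar27, Bar28, Bar19 or Bar21. The maternally expressed Meg3 went from 569, 794 and 763 CPM to 739 to 1197 CPM, with overlapping stages (0.62, adjusted p = 0.0164). Lin28a did not pass in its change in mutants without Bar25 (adjusted p = 0.0648), nor Trim71 without Bar25, Bar27, Bar28, Bar19 or Bar21 (up to 0.0989), nor Dlk1 without Bar25 or Bar28 (up to 0.0854). Meg3 did not pass in its change in mutants without Bar25 or Bar28 (adjusted p up to 0.101).

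Hox genes, whose order along each cluster follows the body axis, were called in both directions, and a difference between paralog groups was not tested. Of 12 genes of paralogs 1 to 4, 5 rose and 1 fell, with a median of 0.82, where 8.91% of all genes rose and 6.97% fell. Hoxa4 went from 1.29, 2.00 and 2.23 CPM to 5.34 to 12.5 CPM (2.38, adjusted p = 0.000527), and Hoxb4 rose by 1.04. The one that fell was Hoxd1 (−1.73). Of 15 genes of paralogs 5 to 9, 2 rose, Hoxc5 (2.60) and Hoxa5 (1.34), and 3 fell, among them Hoxa9 (−1.08) and Hoxc9 (−0.87). Of 12 genes of paralogs 10 to 13 only 6 passed the low-count filter, and 3 of these fell, Hoxa10 (−1.75), Hoxa11 (−2.39) and Hoxa13 (−1.85). Several of the posterior calls were near the threshold. Within the NovaSeq run 8 genes of paralogs 1 to 4 rose and 1 fell, 4 of paralogs 5 to 9 rose and none fell, and 2 of paralogs 10 to 13 fell, against 13.6% of all genes higher and 12% lower there. The 5 rises of paralogs 1 to 4 were 1 without Bar25 and 2 without Bar28. The 3 falls of paralogs 5 to 9 were 0 without Bar27, Bar28, Bar10, Bar19 or Bar21, and those of paralogs 10 to 13 were 1 without Bar27 or Bar28. Within the NovaSeq run Hoxa9, Hoxc9 and Hoxa10 kept their direction with adjusted p of 0.0603, 0.0618 and 0.0536. Hoxb4 did not pass in its change in mutants without Bar25 (adjusted p = 0.0521), nor Hoxa9 without Bar27, Bar28, Bar10, Bar19, Bar20 or Bar21 (up to 0.183), nor Hoxc9 without Bar27, Bar28, Bar10, Bar19 or Bar21 (up to 0.185). Hoxa10 did not pass in its change in mutants without Bar27 or Bar28 (adjusted p up to 0.0859), nor Hoxa13 without Bar27, Bar28 or Bar20 (up to 0.155).

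**Figure D3:**
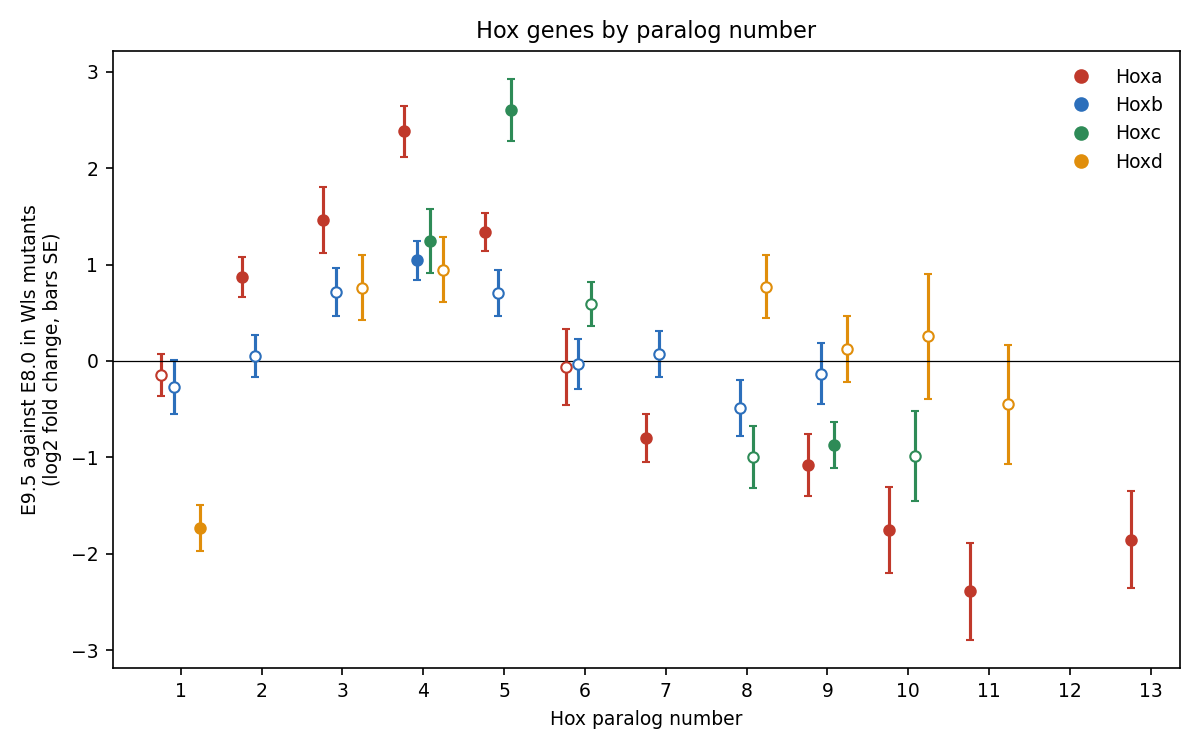
Log2 change from E8.0 to E9.5 in Wls mutants of the Hox genes tested, by paralog number, with SE as bars and colour for the cluster; filled symbols passed an edgeR adjusted p of 0.05. Filled points lie above 0 for paralogs 2 to 5 and below 0 from paralog 7 on, apart from Hoxd1.

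Globin and other red cell genes rose. All 7 globin genes did, with a median of 3.20, where 8.91% of all genes rose. Without Bar25 4 of the 7 passed and without Bar28 5. The share of cells in the globin range was 12.2%, 10.8% and 3.21% in the E8.0 barcodes and 10.7% to 31.6% (median 15.6%) in the E9.5 barcodes, which overlapped (difference of means 8.97 percentage points, two-sided exact permutation p = 0.155, adjusted 0.232 over 3 ranges). In counts summed over a barcode, more cells of a type and more RNA per cell cannot be told apart. Within globin-range cells Hbb-y, one of the genes that set the range and so given with no test, had 5792, 13250 and 12434 CPM at E8.0 and 118340 to 246580 CPM at E9.5, without overlap. The third E8.0 value (Bar28) and both ends of the E9.5 range (Bar8 and Bar5) come from 18 such cells each, and the other 4 E9.5 barcodes had 124600 to 194370 CPM. In controls all 7 globin genes were higher at an unadjusted p under 0.05 and edgeR called none. Of 17 red cell and heme genes 11 rose, such as the anion exchanger Slc4a1 (1.96) and the heme enzyme Alas2 (2.47), while the erythroid regulator Gata1 had overlapping stages (0.49, adjusted p = 0.382). The 11 were 2 without Bar25, 3 without Bar28, 5 without Bar27, Bar19 or Bar21 and 4 with limma on mean CPM per cell. Without globin-range cells none of the 17 rose and 1 fell (median 0.12), where 1646 of 16509 genes rose and 1250 fell. Within globin-range cells 9 of the 17 rose, against 4.98% of 9140 genes. In cells outside the ranges edgeR called none of the 7 globin genes, which set the globin range. Slc4a1 did not pass in its change in mutants without Bar25 (adjusted p = 0.0519).

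The proportions of the globin chains differed between the stages as well. Hbb-y, the later of the embryonic beta-like chains, made up 36.6%, 35.2% and 43.3% of the UMIs of Hbb-y and Hbb-bh1 together at E8.0, and 71.4% to 82.8% (median 77.7%) at E9.5. The stages did not overlap, and the NovaSeq barcodes alone had 71.4% to 78.4%. The E8.5 mutant had 72.5%. Controls had 18.4% to 38.9% at E8.0 and 70.4% to 80.7% at E9.5. Among the alpha-like chains, Hba-a1 and Hba-a2 together made up 15.5% to 16.8% of the alpha-like UMIs at E8.0 and 22.3% to 26.9% at E9.5. Hba-a1 and Hba-a2 are near-identical copies, and the split of reads between them is uncertain.

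Summed over all cells Hbb-y rose by 5.14 (SE 0.77, adjusted p = 0.00237), from 1360.5, 2341 and 969 CPM to between 19379 and 117940.0 CPM (median 37332). Its highest value was in Bar5, and the change was 4.44 without it. Hba-a2 (3.61, and 3.04 without Bar5), Hba-a1 (3.22, and 2.60 without Bar5) and Hbb-bt (3.20) were also among the 10 largest rises, and Hbb-bt shares reads with its near-identical neighbour Hbb-bs. C1qtnf4, a secreted C1q-related protein, rose by 2.83 (2.42 without Bar5). Hba-a1 did not pass in its change in mutants without Bar25 (adjusted p = 0.0534), nor C1qtnf4 without Bar25 or Bar28 (up to 0.0649).

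Pf4, a platelet and megakaryocyte chemokine, rose by 5.42 (adjusted p = 0.0254) and varied from 0.534 to 441 CPM (median 34.3) among E9.5 barcodes, against 3.13, 4.16 and 4.18 CPM at E8.0. The sum of 12 megakaryocyte and myeloid genes was 13.4 to 21.2 CPM at E8.0 and 4.80 to 480.8 CPM at E9.5. Pf4 did not pass in its change in mutants without Bar25, Bar27 or Bar28 (adjusted p up to 0.113).

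Metallothionein and heat shock genes were among the largest rises. Mt1, a zinc-binding metallothionein, had 47.6, 55.3 and 56.0 CPM at E8.0 and 115 to 6163 CPM (median 795) at E9.5 (log2 5.26, SE 1.25, adjusted p = 0.0165). The stages did not overlap, and the E9.5 barcodes differed widely, with Bar5 highest and Bar8 lowest. Without Bar5 the change was 3.86 (adjusted p = 0.00459). In globin-range cells, in the 2 and 4 barcodes with 20 or more of them, Mt1 had 103 and 114 CPM at E8.0 and 1888, 2117, 3877 and 5689.8 CPM at E9.5 (5.63, adjusted p = 0.000291). Bar28 at E8.0 and Bar5 and Bar8 at E9.5, with 18 such cells each and not in that test, had 562, 12828 and 165 CPM, so the stages overlapped there through Bar8. In the cells outside all ranges Mt1 had means of 41.8 and 126 CPM (1.65, adjusted p = 0.00773). Hspa1a, an inducible Hsp70, had 1.29, 0.943 and 1.32 CPM at E8.0 and 3.20 to 69.3 CPM (median 34.6) at E9.5 (5.07, adjusted p = 0.00647). In globin-range cells of the same barcodes it had 1.85 and 0 CPM and then 41.5, 62.5, 236 and 273 CPM. It had 129 CPM in the 18 cells of Bar5, and 0 UMIs in those of Bar8, which allows up to 11.3 CPM (counting error only), while outside the ranges its means were 1.11 and 2.56 CPM. The difference from controls passed for Hspa1a (5.30, adjusted p = 0.0492) and not for Mt1 (4.07, adjusted p = 0.081). Mt2 rose by 5.02 (4.13 without Bar5) and Hspa1b, whose sequence is nearly that of Hspa1a, by 4.15. Trib3, a pseudokinase of the amino acid stress response, rose by 3.62 (3.10 without Bar5). Of 13 metallothionein, heat shock and early-response genes 5 were called, all higher, where 8.91% of all genes rose, with 1 called without Bar25, 2 without Bar28 and 3 without Bar27. Such genes are also known to respond to tissue dissociation, whose part in the result was not tested. Mt1 did not pass in its change in mutants without Bar25, Bar27 or Bar28 (adjusted p up to 0.0822), nor Mt2 without Bar25 or Bar28 (up to 0.0599), nor Hspa1b without Bar25 (0.0538). Trib3 did not pass in its change in mutants without Bar25 or Bar28 (adjusted p up to 0.0644). Hspa1a did not pass in its difference from controls without Bar24, Bar26, Bar29, Bar4, Bar22, Bar23, Bar25, Bar27, Bar28, Bar5, Bar10, Bar19 or Bar21 (adjusted p up to 0.129).

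Heart genes were counted in all cells and in sarcomere-range cells, which are part of them, and the difference between the 2 was not tested. Of 20 sarcomere genes 1, the ventricular light chain Myl2, rose in all cells (2.25, adjusted p = 0.0125) and none fell, with a median of 0.30, where 8.91% of all genes rose. The direction of this list depended on the setting. Within the NovaSeq run 2 rose and 5 fell (median −0.37), where 13.6% of all genes rose and 12% fell. With a run term 2 rose and 4 fell (median −0.39). With the male share as a covariate 1 rose and 3 fell (median −0.71). The median was also negative without Bar8 (−0.13) and with limma on mean CPM per cell (−0.09), each with 1 rise and no fall. Without any other single barcode it stayed positive (0.24 to 0.47). Bar8 had the highest share of sarcomere-range cells at E9.5. Whether run or the cell content of Bar8 turned the direction was not tested. The share of sarcomere-range cells was 13.5%, 11.4% and 10.4% at E8.0 and 3.51% to 16.1% (median 6.70%) at E9.5, with overlap (difference −3.60 points, exact permutation p = 0.238, adjusted 0.238). Within sarcomere-range cells, leaving out the 6 genes that set the range, 9 of 14 sarcomere genes rose and none fell, with a median of 0.93 against 0.0014 for all genes, of which 8.67% rose. Myl2 had 267, 408 and 452 CPM there at E8.0 and 1808, 2182, 2309, 2789 and 3181 CPM at E9.5, well apart (2.79, SE 0.21, adjusted p = 1.18e-06). Myh7, the slow myosin heavy chain, had 738, 796 and 787 CPM and then 1274, 1473, 1788, 2296 and 2333 CPM (1.33, adjusted p = 0.000197), where in all cells it was at 0.69 (adjusted p = 0.257). Tnni3, the adult cardiac troponin I (1.68), and Myl3 (1.48) rose in the range too. Myl2 did not pass in its change in mutants without Bar25 or Bar28 (adjusted p up to 0.0688).

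Of 9 chamber genes tested in the range 4 rose, where 8.67% of all genes did. The natriuretic peptide gene Nppa had 2.27, 77.3 and 45.0 CPM in E8.0 and 103, 521, 555, 675 and 831 CPM in E9.5 sarcomere-range cells (3.73, adjusted p = 0.00138), and the ventricular repressor Hey2 had 12.8, 11.8 and 19.1 CPM and then 28.9, 33.0, 46.0, 46.4 and 50.4 CPM (1.64, adjusted p = 0.000569). Pln, the inhibitor of the calcium pump, rose in the range by 2.85 and in all cells by 1.83. The pacemaker channel gene Hcn4 fell in the range (−0.68) and in all cells (adjusted p = 0.00909), as did the calcium channel gene Cacna1d (−1.06 and −1.52). Of all genes tested in the range 5.39% fell. Of 13 cardiac transcription factors 2 fell and none rose in all cells, but within the NovaSeq run 1 rose and 6 fell, and without Bar25 or Bar27 none was called. None rose in the range, and 1 did in cells outside the ranges. In the range Gata5 (−0.76), Mef2c (−0.70) and Smarcd3 (−0.48) fell, and Nkx2-5 was at −0.21 (adjusted p = 0.37). Of the nuclear respiratory genes 11 of 24 rose in sarcomere-range cells, against the same 8.67%, Cox6a2 with 24.2, 60.4 and 38.2 CPM at E8.0 and 268, 293, 319, 325 and 344 CPM at E9.5. In all cells edgeR called none of the sarcomere, chamber, calcium or transcription factor genes in the difference from controls, with 1, 1, 2 and 3 at an unadjusted p under 0.05. All 20 sarcomere genes were negative there (median −0.38) and 12 of 13 transcription factors positive (0.28), against −0.01 for all genes. Without a filter on low counts edgeR called 5 sarcomere genes lower and 3 transcription factors higher. It also called 1 chamber gene higher and 2 lower, where 792 of 34851 genes passed. Pln did not pass in its change in mutants without Bar25 or Bar27 (adjusted p up to 0.0688). Hcn4 did not pass in its change in the range without Bar25, Bar27 or Bar19 (adjusted p up to 0.0662), nor Cacna1d without Bar25 (0.0597), nor Smarcd3 without Bar25, Bar27, Bar28, Bar19, Bar20 or Bar21 (up to 0.155).

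**Figure D4:**
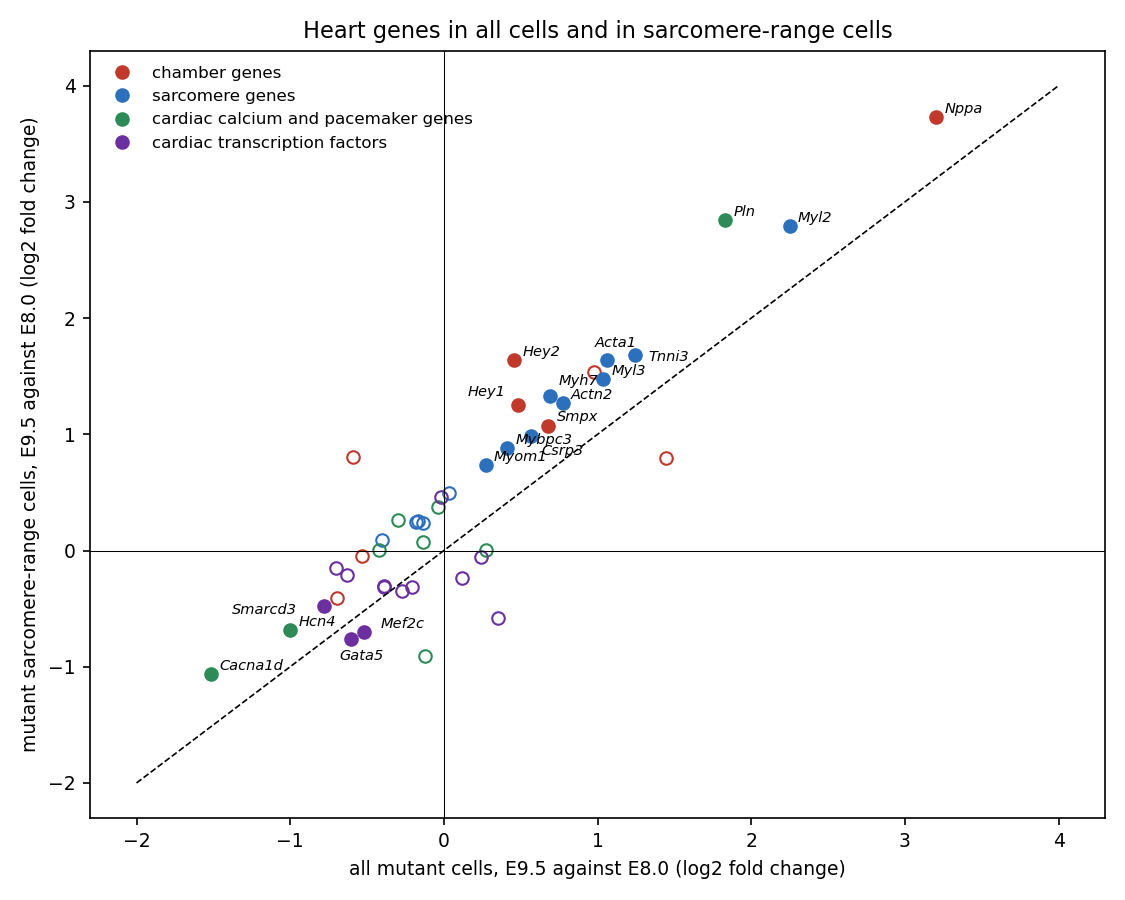
Log2 change from E8.0 to E9.5 in all mutant cells (x axis) and in mutant sarcomere-range cells (y axis) for heart genes other than the 6 that set the range; filled and named points passed an edgeR adjusted p of 0.05 in the range and the dashed line marks equal change. Most sarcomere genes lie above the line, and Nppa is the furthest up; the cells of the range are part of all cells, so the axes are not independent.

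The share of endothelial-range cells was lower at E9.5. They were 6.38%, 9.56% and 10.0% of cells at E8.0 and 0% to 4.40% (median 2.93%) at E9.5, without overlap (difference −6.06 points, exact permutation p = 0.0119, the smallest that 84 splits allow, adjusted 0.0357). Leaving out any 1 barcode kept the direction and gave adjusted p of 0.0536 to 0.107. Bar5 had 0 of 57 such cells, which allows a share of up to 5.26%. Median depth per cell was also lower at E9.5, and a cell enters the range by detected genes. With every cell thinned to 5000 UMIs, which left out no E8.0 cell and from 0 to 13 cells of each E9.5 barcode (8 of the 57 in Bar5), the shares were 2.81% to 7.68% at E8.0 and 0% to 3.24% at E9.5. These overlapped and no longer passed (difference −3.91 points, exact permutation adjusted p = 0.0714). At 3 instead of 5 detected genes in thinned cells they were 5.61% to 10.8% and 0% to 4.98%, without overlap (−6.11 points, exact permutation adjusted p = 0.0357). Control barcodes, whose shares were not tested, had 4.23% to 7.63% at E8.0 and 2.73% to 3.28% at E9.5 before thinning. Of 14 endothelial genes 4 were called lower and 2 higher in controls, where 1.46% and 1.98% of all genes were. In mutants 7 of the 14 fell and none rose, where 6.97% of all genes fell. The 7 were 3 without Bar27 or Bar28, 4 without Bar19, Bar20 or Bar21, and 3 with the male share as a covariate, with limma or with equal numbers of cells. With equal numbers of cells 148 of 9329 genes fell. Kdr, the main VEGF receptor, had 80.2 ± 19.0 CPM (SD, n = 3, lowest 59.6 and highest 97.1) at E8.0 and 17.8 to 42.8 CPM at E9.5 (−1.41, adjusted p = 0.00241).

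Several proepicardial genes rose. The proepicardium is the cell cluster at the venous pole that later covers the heart. Of 10 genes 6 rose and 1 fell, with a median of 1.41, against 8.91% and 6.97% of all genes. With equal numbers of cells 3 of 9 rose, where 286 of 9329 genes did. Wt1, the zinc finger factor of mesothelium, had 0.645, 2.99 and 1.74 CPM at E8.0 and 10.5 to 26.5 CPM (median 18.5) at E9.5 (3.34, adjusted p = 0.000821). The mesothelial surface gene Upk3b had 1.38, 1.16 and 1.53 CPM and then 7.47 to 29.1 CPM (3.63), and the venous pole factor Tbx18 rose by 1.60. Krt19, a simple keratin, had 19.0, 19.7 and 22.7 CPM and then 57.6 to 153 CPM (2.45), and it was the one gene of the list that passed in the difference from controls (1.68, adjusted p = 0.0159). The secreted Frizzled-related gene Sfrp5, an early venous pole marker, fell (−1.25). Krt19 did not pass in its difference from controls without Bar29, Bar25 or Bar27 (adjusted p up to 0.0632).

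Among 14 retinoic acid genes 3 rose and 1 fell, where 8.91% of all genes rose and 6.97% fell. Aldh1a2, the enzyme that makes retinoic acid in early mesoderm, had 85.3, 91.0 and 119 CPM at E8.0 and 15.1 to 49.8 CPM at E9.5 (−1.36, adjusted p = 0.000888). Cyp26b1, which degrades it, had 0.83, 1.44 and 0.697 CPM and then 5.34 to 15.1 CPM (3.58, adjusted p = 0.000283). The receptor gene Rarb (1.30) and the carrier Crabp2 (1.37) rose, and these were all the calls of the list. Of the second heart field list, 3 genes rose and 2 fell of 14, with Sema3c (1.35) and Nr2f1 (1.30) rising and Fgf8 falling (−1.03). Within the NovaSeq run 5 of this list rose and 1 fell. Without Bar25 1 rose and none fell, without Bar28 1 rose and 1 fell, and 1 fell without Bar27, Bar8, Bar10, Bar19 or Bar21. Nr2f1 did not pass in its change in mutants without Bar25 or Bar28 (adjusted p up to 0.101), nor Fgf8 without Bar25 (0.0634).

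Of 22 matrix genes 11 rose, 2 fell and 9 were not called, against 8.91% and 6.97% of all genes. With equal numbers of cells 6 of 20 rose, where 286 of 9329 genes did. The fibrillar collagen gene Col3a1 had 23.2, 36.6 and 34.5 CPM at E8.0 and 117 to 219 CPM (median 185) at E9.5 (2.63, adjusted p = 2.51e-05). Col1a1 (2.00) and Col11a1 (1.75) rose too, and Postn, a matricellular protein of cushions and fibroblasts, rose by 2.89, with 4.31 CPM in Bar5, below the E8.0 barcodes (7.37, 6.71 and 9.34 CPM), and 38.8 to 68.6 CPM in the other 5. Fibronectin (Fn1, −0.68) and the cardiac jelly linker Hapln1 (−0.76) fell. Of 12 somite genes tested 2 rose and 2 fell, and within the NovaSeq run 5 rose and 2 fell. Meox2 rose (1.28) and Tcf15 fell (−0.99). The rises were 0 without Bar25 and 1 without Bar27, Bar28 or Bar21, and the falls 0 without Bar28 and 1 without Bar27. In the difference from controls all 12 somite genes were negative, with a median of −0.75 against −0.01 for all genes. EdgeR called none of them, with 7 lower and 0 higher at an unadjusted p under 0.05. Of all 17891 genes 2247 were under it in either direction. DESeq2 called 2 lower, where 178 of 17891 genes were. Without a filter on low counts edgeR called 7 of 13 lower, where 353 of 34851 genes were. Hapln1 did not pass in its change in mutants without Bar25, Bar27 or Bar28 (adjusted p up to 0.0718), nor Meox2 without Bar25 (0.0511), nor Tcf15 without Bar28 (0.0945).

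Among Wnt ligand and secretion genes 2 rose and 2 fell of 9 tested, where 8.91% of all genes rose and 6.97% fell. The falls were 0 without Bar27, Bar28, Bar10, Bar19, Bar20 or Bar21 and 1 without Bar25 or Bar5, and the rises 1 without Bar25, Bar27 or Bar28. Wnt4 had 8.02, 7.49 and 7.11 CPM at E8.0 and 6.47 to 24.9 CPM at E9.5 (1.46, adjusted p = 0.00257), and Wnt11, a non-canonical ligand of the outflow region, rose by 0.69. Of 13 canonical Wnt targets 2 fell, Sp5 with 26.8, 16.3 and 25.2 CPM and then 3.23 to 10.1 CPM (−1.39), and the G1 cyclin Ccnd1 (−0.50), with 1 called without Bar28. Axin2 was at −0.31 (adjusted p = 0.151) and Lef1 at −0.54 (adjusted p = 0.0669). In the difference from controls edgeR called none of these Wnt genes, with 1 of 12 ligand and secretion genes and 1 of 13 targets at an unadjusted p under 0.05. Wnt11 did not pass in its change in mutants without Bar25, Bar27 or Bar28 (adjusted p up to 0.0718), nor Ccnd1 without Bar28 (0.0956).

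Of 16 S phase genes 8 fell and none rose (median −0.33), where 6.97% of all genes fell. The 8 were 2 without Bar25, 3 without Bar27 or Bar28, 5 without Bar19 or Bar21 and 1 with equal numbers of cells, where 148 of 9329 genes fell. Of 16 G2 and M genes 1, the mitotic kinase Aurka, fell (−0.31, adjusted p = 0.0327; median of the list −0.02), a share near that of all genes. Rrm2, a subunit of ribonucleotide reductase, had 368, 347 and 362 CPM at E8.0 and 90.5 to 269 CPM at E9.5 (−0.88, adjusted p = 0.00795). The S phase cyclin Ccne1 (121 ± 10.3 CPM and then 54.1 ± 16.4 CPM, SD, n = 3 and 6, edgeR adjusted p = 0.00254) and the replication licensing gene Mcm4 (−0.48) fell, and the CDK inhibitor Cdkn1b rose by 0.93. In sarcomere-range cells 10 of the 16 S phase genes fell with a median of −0.77, Rrm2 among them (−1.41), where 5.39% of 8938 genes fell. In the difference from controls edgeR called no gene of either list, with 4 S phase and 0 G2 and M genes at an unadjusted p under 0.05. Aurka did not pass in its change in mutants without Bar25, Bar27, Bar28, Bar20 or Bar21 (adjusted p up to 0.193), nor Mcm4 without Bar25, Bar27 or Bar28 (up to 0.0854).

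Across all genes the stage changes of mutants and controls mostly pointed the same way. Of the 2713 genes called in mutants 2646 were tested in controls, and 2441 had the same direction there. Neither fit held run as a term. In both genotypes all E8.0 barcodes were in the NovaSeq run and some of the E9.5 barcodes in the NextSeq runs. The part of run in this shared direction was not tested. In controls, with 3 and 5 barcodes, 356 of the 2713 were called the same way. The number of barcodes and the spread differed between the genotypes, so the lower count in controls does not show smaller changes. On the negative side of the difference, the largest were the long non-coding RNA Foxd2os (−1.56), the cartilage collagen Col2a1 (−1.05), the cation channel Trpm2 (−0.96), the imprinted Nnat (−0.78) and the centriole gene Cenpj (−0.73), with adjusted p of 0.0431 or below. Of these Trpm2 (−1.31) and Cenpj (−0.81) fell in mutants. Nnat was at 0.18 in mutants (adjusted p = 0.146) and rose in controls (0.99, adjusted p = 0.00335), while Foxd2os and Col2a1 were called in neither genotype alone. Trpm2 did not pass in its change in mutants without Bar25 or Bar28 (adjusted p up to 0.0554). Foxd2os did not pass in its difference from controls without Bar23, Bar27 or Bar28 (adjusted p up to 0.0583), nor Col2a1 without Bar24, Bar22, Bar23, Bar25, Bar27, Bar28 or Bar10 (up to 0.0857), nor Trpm2 without Bar25 or Bar28 (up to 0.0583). Cenpj did not pass in its difference from controls without Bar24, Bar26, Bar29, Bar9, Bar22, Bar23, Bar25, Bar27, Bar28, Bar8, Bar10, Bar19 or Bar21 (adjusted p up to 0.119).

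**Figure D5:**
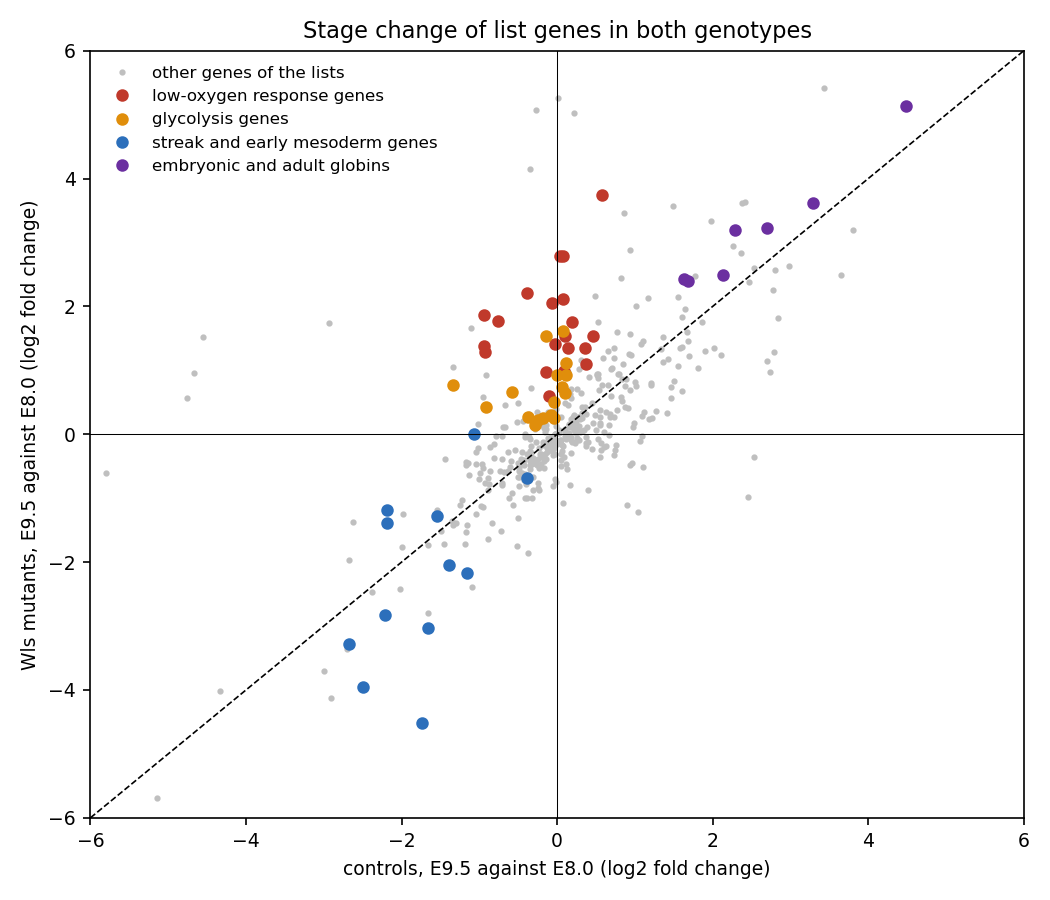
Log2 change from E8.0 to E9.5 in controls (x axis) and in Wls mutants (y axis) for the genes of the lists that were tested in both; the genotypes share no barcode and the dashed line marks equal change. The 20 low-oxygen genes lie above the line, between 0.61 and 3.75 in mutants. All 7 globin genes lie above it too, by 0.32 to 0.91, with none called in the difference, and 4 of 12 streak genes do. In the fit of the difference only 2 of the 7 globin genes were positive without the control barcode Bar26. Without a filter on low counts 3 of the 7 were called higher.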

How the data were processed

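Cells labelled Mesp1+ by their reporter were sorted, tagged with MULTI-seq barcodes and run on 10x Chromium, per the labels' protocols. The authors deposited raw UMI counts per cell and a table giving each cell its barcode, stage and genotype. The submitters' processing notes name kallisto, bustools 0.46.1, Cell Ranger and GRCm38; how doublets were treated is not given in the sources used here, and no further cell was removed. Counts were summed per barcode and fitted in edgeR 4.0.16 (R 4.3.3; filterByExpr, TMM, quasi-likelihood test, two-sided, Benjamini-Hochberg over all genes tested, threshold 0.05). Alternatives used DESeq2 1.42.0, limma 3.58.1 (log2 of mean CPM + 1), other filters, a run term, equal numbers of 57 cells per barcode and leaving out each barcode. Where leaving out 1 barcode ended a printed call of a named gene in mutants, in the difference or in sarcomere-range cells, its paragraph or the closing section says so. Calls of single genes in controls, in globin-range cells and in cells outside the ranges were not checked in this way. Ranges of cells were compared with exact permutation tests. CPM are relative to all UMIs of a barcode, scaled by TMM only in the fits. The members and lists were chosen with earlier results of these data known. Named genes are the 10 largest rises and falls that also passed within the NovaSeq run, did not overlap and reached a mean of 20 CPM, the 5 largest differences from controls on each side, up to 6 members of each list and Wls; further low-oxygen and glycolysis genes were named after their values were seen. The result of 1 gene is not reported here. On simulated counts for the mutant comparison (17082 genes, 200 changed) the test recovered 61% of changes of 1 and 91% of changes of 2 on the log2 scale, with 13 false calls, and for the difference (17891 genes) 42% and 71%, with 6. The mutant comparison called 2713 genes in the data, far more than the 200 changed here, and no effect of run or sex was simulated. These rates need not hold for the data.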

Additional observations from a re-analysis of the deposited data

Results flagged for a closer look

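For 140 values the gap of the highest or the lowest of the 6 E9.5 mutant barcodes to its nearest neighbour was divided by the range of the 6, and 20 exceeded the critical value of Dixon's test (0.625), which chance does in about 1 of 20 groups. Bar5, with 57 cells the smallest barcode, gave 14 of the 20. It was apart at the top for C1qtnf4 (0.712), Hba-a1 (0.751), Hba-a2 (0.696), Hbb-y (0.761), Mt1 (0.787), Mt2 (0.663), Stc2 (0.636), Trib3 (0.779) and the globin share of UMIs (0.759), and at the bottom for Aurka (0.64), Cenpj (0.672), Nnat (0.719), Sall4 (0.629) and Tdgf1 (0.656). Bar20 was apart at the bottom for Cdkn1b (0.896), Pdk1 (0.663) and Pfkp (0.647). Bar8 was apart at the top for Kifc2 (0.786) and T (0.679), and Bar10 for Tbx18 (0.645).

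For 34 named genes the stage change in mutants differed from that in controls in the edgeR test of the interaction, at an adjusted p under 0.05. The change, on the log2 scale, was more positive in mutants for Hspa1a (5.30), Bhlhe40 (3.23), Stc2 (2.83), Ier3 (2.80), Ddit4 (2.75), Ndrg1 (2.73), Ndufa4l2 (2.67), Aldoc (2.56), Egln3 (2.38), Car9 (2.31), Ankrd37 (2.16), Slc2a3 (2.12), Vldlr (1.88), Pfkp (1.84) and Bnip3 (1.68). With smaller differences it was also more positive for Krt19 (1.68), Pfkfb3 (1.55), P4ha2 (1.46), Vegfa (1.44), Slc2a1 (1.43), Hk2 (1.25), P4ha1 (1.23), Egln1 (1.13), Pdk1 (1.07), Gpi1 (0.82), Higd1a (0.74), Tpi1 (0.71) and Ldha (0.59). Without 1 barcode the difference no longer passed for Car9 (any of 10 barcodes, adjusted p up to 0.103), P4ha1 (9, up to 0.0939), P4ha2 (7, up to 0.079) and Vldlr (5, up to 0.0729). The change was more negative in mutants for mt-Nd1 (−0.69), Cenpj (−0.73), Nnat (−0.78), Trpm2 (−0.96), Col2a1 (−1.05) and Foxd2os (−1.56).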

How the results depend on the processing

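The 2713 genes called in mutants were 4170 with run as a term, 4261 within the NovaSeq run, 938 with limma on mean CPM per cell, 434 with equal numbers of cells and 807 to 3195 when 1 barcode was left out. The 103 genes of the difference were 24 without a run term, 32 within the NovaSeq run, 465 with DESeq2, 792 without a filter on low counts, 314 with the male share as a covariate, 219 without globin-range cells and 28 to 183 when 1 barcode was left out. The 586 genes in controls were 936 with a run term and 1077 within the NovaSeq run. Leaving out 1 barcode gave 929 to 3056 genes in cells outside the ranges and 637 to 1426 in the sarcomere range. The Wls change in mutants, −0.07 on the log2 scale and not called, was 0.11 without the deepest 5% of cells and 0.39 with limma, −0.42 with equal numbers of cells, and −0.33 to 0.09 when 1 barcode was left out, with 0.0813 without Bar25, 0.0863 without Bar27 and 0.000911 without Bar21. The difference in endothelial-range cells, −6.06 percentage points, was −7.19 to −5.38 when 1 barcode was left out and then no longer passed, where fewer barcodes raise the smallest p possible, and −3.91 in thinned cells, where it did not pass. The other causes were not tested. Of the low-oxygen genes 17 to 20 were called higher in mutants under every setting run. The thinning, the fits of cell ranges without 1 barcode, the globin-range fit and the control fit within the NovaSeq run were added after seeing the data. No paired analysis was possible because the barcodes carry no replicate numbers shared between the stages or genotypes. Depth per cell was lower at E9.5, and genes below the low-count filter, such as 6 of 12 posterior Hox genes, could not be compared.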
